A study of Mus musculus with 12 samples.

Results

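Accessible chromatin regions of mouse blood cells were examined where they sat on B4 and B1 repeats, both families of short interspersed elements (SINEs). The members are the peaks of the master peak-list whose centre was annotated to a B4 or to an Alu-class SINE, the class under which mouse B1 is filed. Of 84243 peaks, 1122 were members, 710 on B4 and 412 on B1, and the families are described apart. The list came from ATAC-seq, in which a transposase cuts exposed DNA, of cells sorted by flow cytometry from wild-type C57BL/6 mice aged 8 to 12 weeks. There were 12 samples, 2 replicates of each of 6 cell types: hematopoietic stem cells (HSCs), megakaryocyte progenitors (MkPs), erythroid progenitors (EPs), granulocyte/macrophages (GMs) and B cells of the bone marrow, and T cells of the thymus. The animals carried no engineered allele and received no treatment. The list is pooled over all 12 samples and names no cell type for a peak, its score is 0 in each peak, and it holds no reads, so depth is unknown and no value below has an error between replicates. Shares are given with 95% Wilson intervals, which cover counting error only, and medians with quartiles. Peaks are not replicates of a condition, so no test was run.

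SINEs are short elements without genes of their own that were copied through RNA and inserted across the genome by the machinery of longer elements. They are transcribed by RNA polymerase III from an internal promoter that holds an A box and a B box. B1 derives from the RNA of the signal recognition particle, and the PB1 (proto-B1) subfamilies are its oldest relatives, while the B1_Mus and B1_Mm subfamilies are the youngest. The B4 family joins pieces related to ID elements, which derive from a transfer RNA, and to B1, and its subfamilies include ID_B1 and RSINE1. Old copies have gathered many changes and differ from each other, whereas young copies are nearly alike, which matters for whether a short read can be placed.

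Reference copies show what the members share. Each is the stretch of 1 member, on the plus strand of mm10, on which the alignments of the other members of its family or subfamily piled up. Capitals mark the 10-base words that were most common among the members, or, in B4A, a place at which members carried an ETS string. The ID_B1 copy held none of the common words of its subfamily.
B1 family, from a B1_Mus1 copy at chr14:27024530-27024665: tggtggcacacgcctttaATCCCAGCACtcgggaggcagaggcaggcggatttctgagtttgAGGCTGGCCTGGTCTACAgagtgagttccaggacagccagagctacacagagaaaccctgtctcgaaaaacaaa
RSINE1, from chr5:34930278-34930394: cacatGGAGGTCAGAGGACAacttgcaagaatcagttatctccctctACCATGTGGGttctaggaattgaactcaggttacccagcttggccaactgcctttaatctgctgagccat
B4A, from chr11:6011942-6012032: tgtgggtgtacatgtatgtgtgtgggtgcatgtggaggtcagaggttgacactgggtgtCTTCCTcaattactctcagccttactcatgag
ID_B1, from chr5:107840603-107840724: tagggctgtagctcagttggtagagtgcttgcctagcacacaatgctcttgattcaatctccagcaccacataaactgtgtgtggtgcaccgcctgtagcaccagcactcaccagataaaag

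Single members near genes show how far stretches of the peaks differed from the reference copies. The central 151 bp of the peak are shown for the member closest to a transcription start site (TSS) in each of the 3 most common subfamilies of B4, and for both B4 members closest to the TSS of a blood gene of the lists described below. Capitals mark the part that aligned to the copy of the same subfamily at a score of at least 22 and an identity of at least 70%. A stretch without capitals had no such alignment, or had it elsewhere in the peak. Where the capitals miss the middle base, the aligned part is not at the centre, where the repeat was named.
ID_B1 at 5730460C07Rik, chr3:153791710-153791860: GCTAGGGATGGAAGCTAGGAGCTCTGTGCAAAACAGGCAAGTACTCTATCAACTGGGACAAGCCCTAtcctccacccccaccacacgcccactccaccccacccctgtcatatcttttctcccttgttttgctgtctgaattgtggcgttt
RSINE1 at Twsg1, chr17:65952207-65952357: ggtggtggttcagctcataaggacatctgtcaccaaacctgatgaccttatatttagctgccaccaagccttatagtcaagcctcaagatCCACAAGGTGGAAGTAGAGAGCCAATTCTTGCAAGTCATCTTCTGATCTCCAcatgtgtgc
B4A at Pik3ip1, chr11:3329276-3329426: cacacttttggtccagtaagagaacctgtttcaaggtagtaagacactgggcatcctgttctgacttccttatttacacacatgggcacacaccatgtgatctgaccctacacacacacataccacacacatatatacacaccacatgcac
RSINE1 at Plek, chr11:17004996-17005146: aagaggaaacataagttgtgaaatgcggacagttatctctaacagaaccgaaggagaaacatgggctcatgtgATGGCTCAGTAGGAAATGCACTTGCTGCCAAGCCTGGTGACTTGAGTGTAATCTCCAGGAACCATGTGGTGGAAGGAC
B4A at Ikzf1, chr11:11694081-11694231: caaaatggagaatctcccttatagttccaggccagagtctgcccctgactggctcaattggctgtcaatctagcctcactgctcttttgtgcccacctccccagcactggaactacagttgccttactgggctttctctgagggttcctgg
The ID_B1 copy near 5730460C07Rik, 302 bp downstream of the TSS, was 76.5% identical to the reference over 81 aligned bases. The RSINE1 copy 3647 bp inside Plek was 72.5% identical over 109 bases, and that 1095 bp upstream of Twsg1 was 76.9% identical over 52. Neither of these B4A members aligned to the B4A copy, although HOMER named both.

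The same was done for B1, against the copy of the B1 family.
B1F at Taf5l, chr8:124020448-124020598: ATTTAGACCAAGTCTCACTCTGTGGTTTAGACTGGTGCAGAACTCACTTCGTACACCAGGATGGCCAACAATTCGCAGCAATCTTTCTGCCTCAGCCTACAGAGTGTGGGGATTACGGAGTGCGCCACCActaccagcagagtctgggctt
B1_Mur1 at Kansl1, chr11:104467825-104467975: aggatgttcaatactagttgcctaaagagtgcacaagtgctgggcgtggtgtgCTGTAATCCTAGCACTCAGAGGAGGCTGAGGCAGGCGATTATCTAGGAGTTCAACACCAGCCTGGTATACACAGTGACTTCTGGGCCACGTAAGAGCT
PB1D10 at Cryba4, chr5:112251407-112251557: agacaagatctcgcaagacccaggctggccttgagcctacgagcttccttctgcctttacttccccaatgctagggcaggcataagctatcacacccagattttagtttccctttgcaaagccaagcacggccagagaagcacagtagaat
PB1D9 at Tfrc, chr16:32610571-32610721: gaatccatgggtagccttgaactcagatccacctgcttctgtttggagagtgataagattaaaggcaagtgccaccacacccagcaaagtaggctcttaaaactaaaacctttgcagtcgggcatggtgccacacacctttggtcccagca
B1_Mur4 at Cebpa, chr7:35110818-35110968: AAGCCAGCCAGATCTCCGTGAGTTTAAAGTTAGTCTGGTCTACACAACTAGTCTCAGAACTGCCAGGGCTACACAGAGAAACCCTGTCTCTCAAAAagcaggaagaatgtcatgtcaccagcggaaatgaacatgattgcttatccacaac
The Taf5l member was 70.2% identical over 131 aligned bases, Kansl1 77.9% over 95 and Cebpa 76.5% over 119. In the Tfrc peak, the best match, 85.1% identical over 74 bases, lay outside the central stretch. That match was thus not at the centre, where PB1D9 was named. The Cryba4 member had none.

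The B4 peaks fell into 4 subfamilies. B4A was the most common with 250 peaks (35.2%, 31.8 to 38.8%), followed by RSINE1 with 186 (26.2%, 23.1 to 29.6%), ID_B1 with 176 (24.8%, 21.7 to 28.1%) and the subfamily that shares the name B4 with 98 (13.8%). The B1 peaks were spread over 15 subfamilies. PB1D10 alone held 83 (20.1%, 16.6 to 24.3%), and no other exceeded 43 (B1F). Grouped by name, PB1 subfamilies made up 172 of the 412 B1 peaks (41.7%), B1_Mur 97 (23.5%), B1F 92 (22.3%), and the young B1_Mus and B1_Mm 51 (12.4%). The old PB1 class was thus the largest group of B1 peaks and the young class the smallest. How many copies of each subfamily the genome holds was not measured here.

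**Figure D1:**
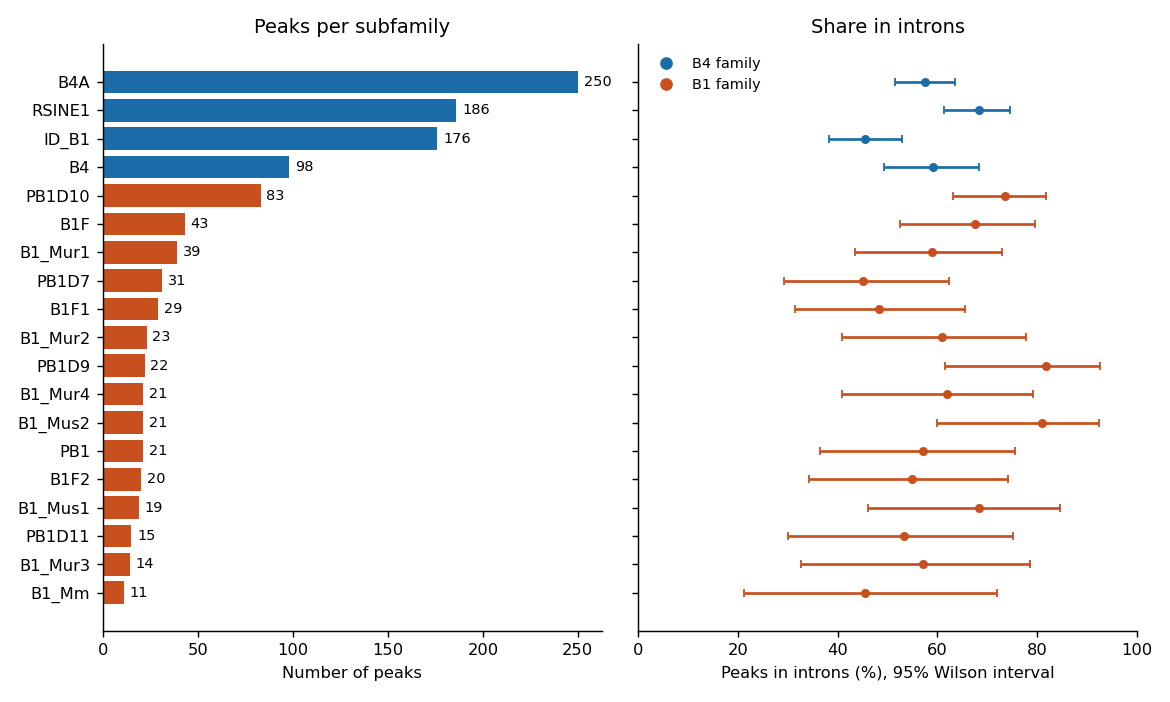
Number of peaks (left) and share of peaks in introns in percent (right) for each of the 19 subfamilies, B4 family in blue and B1 family in orange, with 95% Wilson intervals. B4A leads with 250 peaks and PB1D10 leads B1 with 83; RSINE1 has 68.3% of its peaks in introns and ID_B1 45.5%.

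HOMER names a repeat only where a peak centre lies in an intron or between genes, so promoter, exon and other transcript classes are absent by construction. The fair comparison is therefore with the 52028 intron and intergenic peaks that have no repeat name. Introns held 409 of the B4 peaks (57.6%, 53.9 to 61.2%) and 260 of the B1 peaks (63.1%, 58.3 to 67.6%), against 53.6% of peaks without a repeat name, 55.4% of the 1781 peaks on B2 (another SINE family) and 55.3% of the 463 on MIR, an ancient one. Within B4, the subfamilies differed: RSINE1 peaks were in introns in 68.3% (61.3 to 74.5%) and ID_B1 peaks in 45.5% (38.3 to 52.8%), with B4A at 57.6% between them. Among the larger B1 subfamilies, PB1D10 had 73.5% in introns and PB1D7 45.2%, of 83 and 31 peaks. The first intron of the transcript took 37.9% (33.3 to 42.7%) of the intronic B4 peaks, 32.7% (27.3 to 38.6%) of the intronic B1 peaks and 34.2% of intronic peaks without a repeat name.

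The median distance to the nearest TSS was 20215 bp for B4 (quartiles 9479 and 43018) and 17645 bp for B1 (9092 and 37278). Peaks without a repeat name lay at a median of 24674 bp (9436 and 60143), and B2 peaks were closer, at 16006 bp. Within 10 kb of a TSS were 191 B4 peaks (26.9%, 23.8 to 30.3%) and 112 B1 peaks (27.2%, 23.1 to 31.7%), beside 26.2% of peaks without a repeat name and 34.1% on B2. Within 5 kb were 10.7% of B4 peaks (8.64 to 13.2%) and 15.3% of B1 peaks (12.1 to 19.1%), beside 14.0% without a repeat name, and the intervals of the families overlapped. Only 6 B4 peaks and 2 B1 peaks lay within 1 kb, or 0.845% and 0.485%, beside 1.97% without a repeat name. At the far end, 8.73% of B4 peaks and 8.98% of B1 peaks were more than 100 kb away, beside 14.0% of peaks without a repeat name. Both families thus had smaller shares than peaks without a repeat name within 1 kb and beyond 100 kb, as did B2, at 0.337% and 6.46%. ID_B1 had the largest share within 10 kb among the B4 subfamilies, at 33.0% (26.4 to 40.2%), and B4A the smallest, at 23.6% (18.8 to 29.2%). Upstream of their TSS lay 36.3% of B4 peaks (32.9 to 39.9%), 40.3% of B1 peaks (35.7 to 45.1%) and 41.2% of peaks without a repeat name. Among B4, the upstream share was lowest in RSINE1, at 28.5% (22.5 to 35.4%), and was 44.9% in ID_B1 (37.7 to 52.3%).

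**Figure D2:**
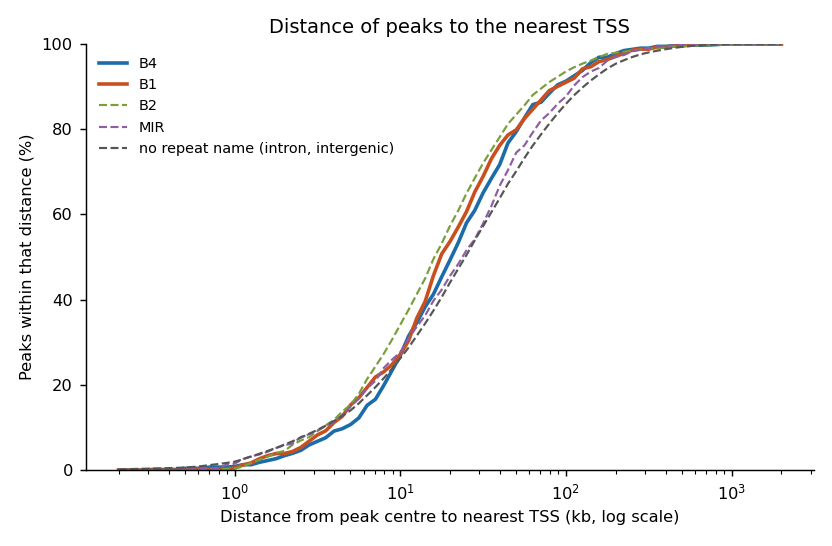
Share of peaks (percent, vertical axis) whose centre lay within a given distance of the nearest TSS (kb, log scale), for B4 (blue), B1 (orange), B2, MIR and intron and intergenic peaks without a repeat name (dashed). At 10 kb the B4 and B1 curves stand at 26.9% and 27.2%, and at larger distances both rise above the curve of peaks without a repeat name.

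Another master peak was centred within 5 kb of 380 B4 peaks (53.5%, 49.8 to 57.2%) and of 248 B1 peaks (60.2%, 55.4 to 64.8%), beside 52.4% for peaks without a repeat name, 47.0% for B2 and 61.3% for MIR. The B4 interval included the share without a repeat name. The median distance to the nearest peak was 4326 bp for B4 and 3825 bp for B1. That neighbour had no repeat name for 443 of the 710 B4 peaks and 245 of the 412 B1 peaks, and was of a promoter, exon or other transcript class for 129 and 92. It was itself a B4 or B1 peak for 17 and 13. Counted per 1000 master peaks, B4 peaks numbered 8.43 in all. Leaving out Y, they ranged from 3.92 on chromosome 19 (2.13 to 7.19) to 12.1 on chromosome 5 (9.48 to 15.5). These are the extremes, picked after the counts were seen, so their intervals do not measure a difference between chromosomes. The master peaks counted include promoter and exon classes, which cannot hold members. B1 peaks numbered 4.89 per 1000 overall and ranged from 3.19 on chromosome 4 to 6.30 on chromosome 13. No member lay on Y, which held 11 peaks.

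The 5 B4 members closest to the TSS of a protein-coding gene were all intronic. The first was an ID_B1 peak 477 bp downstream of the TSS of Iqgap3, a scaffold protein of the cytoskeleton, in intron 1 of 37 (chr3:88082279-88082777). Next came an ID_B1 peak 488 bp inside Cmah, which hydroxylates the sialic acid of glycoproteins, and a B4 peak 685 bp inside Ttc24. Fanci, of the Fanconi anemia pathway of DNA crosslink repair, followed with an ID_B1 peak at 693 bp, and Celf2, an RNA-binding protein, with one at 926 bp. ID_B1 thus supplied 4 of these 5. Iqgap3 and Ttc24 are near each other on chromosome 3, and their peaks start at 88082279 and 88077370.

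The 5 closest B1 members belonged to 5 subfamilies. The B1F peak in intron 1 of Taf5l, a subunit of a histone acetyltransferase complex, lay 533 bp downstream of the TSS, and a B1_Mur1 peak lay 961 bp inside Kansl1, which belongs to another such complex. A PB1D10 peak lay 1036 bp inside Cryba4, a crystallin of the lens. Upstream of their genes were the B1F1 peak at Rab23, a small GTPase, 1107 bp from the TSS, and the PB1D7 peak at Zcchc11, an enzyme that adds uridines to RNA, 1178 bp from it. Cryba4 is a lens gene and was named only as the nearest promoter, which does not make it the target of the peak.

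In all, 655 genes were the nearest promoter of a B4 peak and 396 of a B1 peak. Of the 655, 612 had 1 B4 peak, 37 had 2 and 6 had 3 or more. Of the 396, 380 had 1 B1 peak and 16 had 2. The 37 genes with both were 5.65% of the B4 genes and 9.34% of the B1 genes. Genes with a member had many peaks of any kind, with a median of 8 for genes with a B4 peak and 6.5 for genes with a B1 peak, beside 3 over all 19040 genes. Cxcr4, the chemokine receptor that holds HSCs in the marrow, had 5 B4 peaks. They were 3 of B4A and 2 of ID_B1, all intergenic, 4 of them upstream from 10940 to 218756 bp and 1 downstream at 31257 bp. The genes 2900060B14Rik, Memo1 and Nsd3, the last a histone methyltransferase, had 3 B4 peaks each, and all 3 at Memo1 were RSINE1. Among the 16 genes with 2 B1 peaks, the closest to a TSS were those of Zfand6 (PB1D10, 2373 bp upstream), Cblc (B1F, 3311 bp upstream), Osbpl8 (B1F1, 3639 bp downstream), the microRNA gene Mir6897 (B1_Mur1, 5071 bp upstream) and Lpin2 (B1_Mus2, 8180 bp upstream).

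Blood genes were looked up in 6 lists, 1 for each cell type, of which 140 genes had at least 1 master peak. Of these, 7 (5.00%, 2.44 to 9.96%) were the nearest promoter of a B4 peak, beside 3.44 percent of all genes with a master peak. For B1 there were 5 (3.57%, 1.53 to 8.09%), beside 2.08 percent of all genes, and for either family 12 (8.57%, 4.97 to 14.4%), beside 5.33 percent. The intervals of the listed genes include the share over all genes. Listed genes had a median of 5 master peaks, against 3 over all genes, so they had more peaks in which a repeat could lie.

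The B4 genes of the MkP list were Plek, the pleckstrin of platelets, with an RSINE1 peak in intron 1 of 9, 3647 bp from the TSS, and Itgb3, a chain of the platelet fibrinogen receptor, with an ID_B1 peak in intron 10 of 14. Those of the B cell list were Ikzf1, a lymphoid transcription factor, with a B4A peak in intron 1 of 7, 3979 bp from the TSS, and Blnk, an adaptor of B cell receptor signalling, with a B4A peak at 23872 bp. The HSC list had Lmo2, a scaffold of stem cell transcription factors, with a B4A peak 25757 bp upstream, and Etv6, an ETS repressor, with one 50057 bp upstream. The EP and GM lists had no gene with a B4 peak, of 20 and 23 genes, for which the intervals reach 16.1% and 14.3%.

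For B1, both EP genes were membrane proteins. Tfrc, the transferrin receptor by which erythroid cells take up iron, had a PB1D9 peak in intron 1 of 18, 1524 bp from the TSS (chr16:32610397-32610895). Rhag, a partner of the Rh proteins, had a B1_Mur2 peak at 26407 bp. The GM genes were Cebpa, a transcription factor of the granulocyte lineage, with a B1_Mur4 peak 8400 bp upstream (chr7:35110644-35111142), and Ngp, a protein of neutrophil granules, with a B1_Mur4 peak at 20700 bp. Fli1, an ETS factor of megakaryocytes, had a PB1D11 peak at 68230 bp, in intron 2 of 8. The HSC, B cell and T cell lists had none, of 25, 24 and 28 genes, with intervals that reach 13.3%, 13.8% and 12.1%. Since the peaks carry no cell type, these matches do not say in which cells the chromatin was open.

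Members had a lower GC content than peaks without a repeat name, and fewer CpG. The median GC content was 45.7% for B4 (42.9 and 48.8%) and 45.1% for B1 (41.7 and 48.3%), beside 47.7% without a repeat name, 43.5% on B2 and 48.9% over all peaks. In the central 200 bp it was 49.0% and 47.5%, so the centres were richer than the flanks, as they were in peaks without a repeat name (50%). A B4 peak held a median of 5 CpG and a B1 peak 4, beside 6 without a repeat name and 7 over all peaks. Peaks with 10 or more CpG were 13.0% of B4 and 8.50% of B1, beside 23.1% without a repeat name, 15.3% on MIR and 6.57% on B2.

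Common words were next read from the members themselves, so their frequency is a description and supports nothing further. The most common 10-base words were these, read on either strand.
B4 word 1: CTGAGCCATC
B4 word 2: ATCCCAGCAC
B1 word 1: AGGCCAGCCT
B1 word 2: ATCCCAGCAC
B1 word 3: CTGGTCTACA
RSINE1 word 2: TCAGAGGACA
RSINE1 word 3: GGAGGTCAGA
CTGAGCCATC occurred in 64 of the 710 B4 peaks (9.01%, 7.12 to 11.3%) and in 1.19% of peaks without a repeat name. AGGCCAGCCT occurred in 64 of the 412 B1 peaks (15.5%, 12.4 to 19.3%), beside 2.02%. ATCCCAGCAC, shared by both families, was in 13.1% of B1 and 6.62% of B4 peaks, beside 1.47%. Even the most common word was thus absent from most members. AGGCCAGCCT was in 20 of 51 B1_Mus and B1_Mm peaks (39.2%, 27 to 52.9%), beside 15.5% of all B1 peaks. In B1_Mur it was in 21 of 97 peaks (21.6%, 14.6 to 30.8%), an interval that includes the share of all B1 peaks. Its share in the PB1 and B1F classes is not given, because words that overlap a more common word of the class were left out. In RSINE1, TCAGAGGACA was in 15.6% (11.1 to 21.5%) and GGAGGTCAGA in 12.4% (8.38 to 17.9%), beside 0.548% and 0.438% of peaks without a repeat name. Across the genome, AGGCCAGCCT occurred 176688 times, of which 1766 (1.00%) lay in a master peak, CTGGTCTACA 162308 times (0.763% in a peak) and CTGAGCCATC 128585 times (0.992%). Peaks covered 1.59% of the assembled bases, so these words were less often in a peak than a base was on average. This holds for each of the 7 distinct words counted in the genome, whose shares ran from 0.763 to 1.1%.

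Each whole peak was aligned to the reference copy, without requiring that the aligned part cover the centre, where the repeat was named. Of the other 411 B1 peaks, 262 (63.7%, 59.0 to 68.2%) aligned to the B1 copy, with a median identity of 78.1%. Of 1041 peaks without a repeat name, 63 (6.05%) reached the score, before any limit on identity. The share followed the class: 49 of 50 B1_Mus and B1_Mm peaks aligned (98.0%, median identity 82.6%), 89 of 97 B1_Mur peaks (91.8%, 78.8%), 50 of 92 B1F peaks (54.3%, 74.9%) and 74 of 172 PB1 peaks (43.0%, 77.3%). The reference copy is itself of the young class, so closeness to it is partly closeness to that class. The peak centre lay inside the aligned part in 40 of the 49 B1_Mus and B1_Mm peaks, 72 of the 89 B1_Mur, 27 of the 50 B1F and 29 of the 74 PB1 peaks. In B4, 100 of 185 RSINE1 peaks (54.1%, median identity 74.0%) aligned to the RSINE1 copy, 54 of 175 ID_B1 peaks (30.9%, 76.3%) to the ID_B1 copy, 53 of 249 B4A peaks (21.3%, 73.4%) to the B4A copy and 24 of 97 B4 peaks (24.7%, 74.8%) to a copy of that subfamily. For these 4 copies between 0.672 and 0.768% of peaks without a repeat name reached the score. The centre lay inside the aligned part in 69 of the 100 RSINE1 peaks, 25 of the 54 ID_B1, 13 of the 53 B4A and 11 of the 24 B4 peaks. In the remaining peaks of both families, the match need not be the repeat named at the centre, so shares and identities describe the peaks.

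The peak centre fell inside the aligned part in 168 of the 262 B1 peaks. Its median place was base 44 of 136 (quartiles 20 and 83), and it lay in the 5′ part of the copy in 85 peaks, in the middle part in 45 and in the 3′ part in 38, with parts of equal length. Alignments covered the middle base of these parts in 210, 225 and 158 peaks, so there were 40.5, 20 and 24.1 centres per 100 alignments. B1 centres were therefore more frequent in the 5′ part, where the alignments were no more numerous than in the middle. In RSINE1 the pattern differed. Of 69 centres, 17 lay in the first part, 34 in the middle and 18 in the last, or 18.5, 37.0 and 32.7 per 100 alignments, with a median place of base 54 of 117 (40 and 80). ID_B1 had 25 centres, split 9, 14 and 2.

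**Figure D3:**
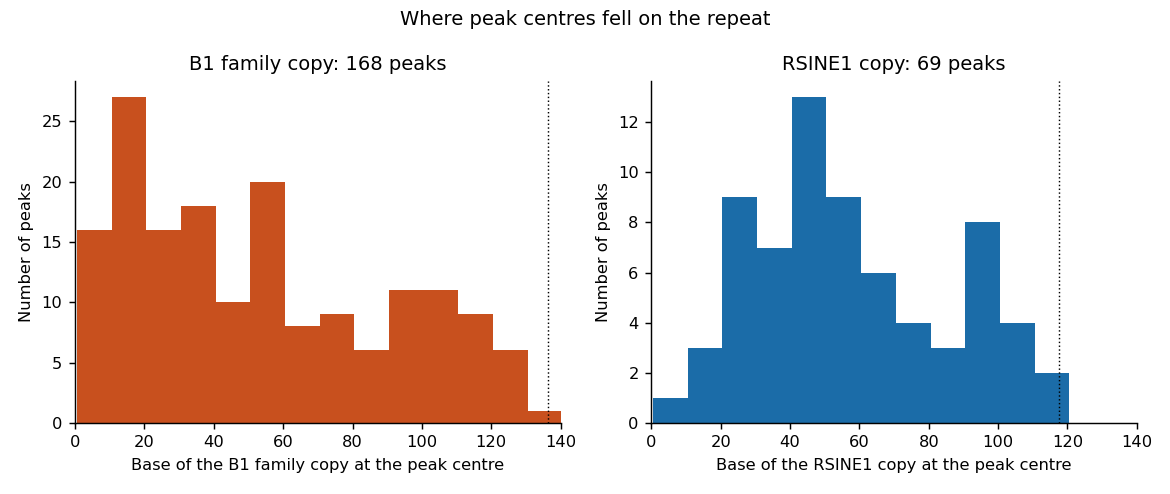
Number of peaks (vertical axis) by the base of the reference copy that lay at the peak centre (horizontal axis, bins of 10 bases), for 168 B1 peaks (left, orange) and 69 RSINE1 peaks (right, blue); the dotted line marks the end of the copy. B1 centres are most frequent near the 5′ end, with 85 in the 5′ part, and RSINE1 centres in the middle, with 34.

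Motif strings were searched as exact matches on both strands of the 499 bp. The strings, with the share of all 84243 peaks of the same length that held each, were AGATAA for GATA factors (24.1%), AGGAAG for ETS factors (62.4%), GAGGAAGT for PU.1 (9.39%), AACCACA for RUNX (16.1%), the E-boxes CAGGTG (32.6%), CAGCTG (29.8%) and CACGTG (9.26%), TGANTCA for AP-1 (15.3%), AGGTCA for nuclear receptors (26.2%), TTGCNNAA for C/EBP (19.3%), CTTTGAT for TCF (6.76%), AAGATGGC for YY1 (3.40%), CCCGCCC for SP and KLF factors (16.1%), the core of the CTCF motif (7.68%) and GTTCGANNC for the B box (1.58%). GAGGAAGT contains AGGAAG, so those 2 are not independent. A match is a description of the letters and not evidence that a factor was bound.

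The GATA string was more frequent in members than in peaks without a repeat name or on B2, but the intervals overlapped those of MIR. It was in 250 B4 peaks (35.2%, 31.8 to 38.8%) and 149 B1 peaks (36.2%, 31.7 to 40.9%), beside 27.5% of peaks without a repeat name, 26.4% on B2 and 31.1% on MIR (27.1 to 35.5%). In the central 200 bp, the shares were 19.9% (17.1 to 23.0%) and 21.6% (17.9 to 25.8%), beside 13.1% without a repeat name and 17.9% on MIR (14.7 to 21.7%), and the nearest match lay a median of 77.5 bp from the centre in B4 and 74.5 bp in B1, beside 102.5 bp without a repeat name and 86.5 bp on MIR. All B4 subfamilies and B1 classes were above the 27.5% without a repeat name, from 28.6% in the B4 subfamily to 39.5% in PB1. That share lay inside the intervals of the B4 subfamily (20.6 to 38.2%), B1_Mur (22.6 to 40.7%), B1F (25.8 to 44.9%) and B1_Mus and B1_Mm (25.3 to 51.0%). Among peaks that aligned to the B1, RSINE1, ID_B1 or B4A copy, most with the string did not have it inside the aligned repeat. Of the 91 aligned B1 peaks with the string, 17 had it there, and of the 40 aligned RSINE1 peaks with it, 12 did. For ID_B1 these were 7 of 20, and for B4A 1 of 17. In ID_B1, its reverse complement began at base 29 of the copy in 5 of 48 peaks that aligned there without a gap (10.4%, 4.53 to 22.2%). In peaks that did not align, the place of the string in the repeat is unknown.

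The nuclear receptor string AGGTCA was in 277 B4 peaks (39.0%, 35.5 to 42.7%) and 124 B1 peaks (30.1%, 25.9 to 34.7%), beside 28.1% without a repeat name, 23.5% on B2 and 36.9% on MIR (32.7 to 41.4%). In the central 200 bp it was in 21.7% of B4 peaks (18.8 to 24.9%), beside 20.5% on MIR (17.1 to 24.4%), so B4 and MIR were not distinguishable. Within B4 it was most frequent in RSINE1 (92 of 186, 49.5%, 42.4 to 56.6%) and ID_B1 (41.5%, 34.5 to 48.9%), and less so in B4A (31.2%, 25.8 to 37.2%). It had a recurring place in RSINE1. In RSINE1, it began at base 8 of the copy in 27 of the 60 peaks that aligned there without a gap (45.0%, 33.1 to 57.5%), inside the word GGAGGTCAGA, and the runner-up among the letters found there was AGATCA, in 6. The copy itself holds AGGTCA there, and peaks were kept for likeness to the copy, so this share is in part fixed in advance. The place was picked after the counts were seen. Of the 50 aligned RSINE1 peaks with the string, 32 had it inside the repeat. The sequences show the string in capitals with 8 bases on each side where the copy has them, in the reference copy and in the 3 members nearest a TSS that hold it.
RSINE1 reference copy: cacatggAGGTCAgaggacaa
Daglb (RSINE1): tcggagggAGGTCAgagagcaa
Plek (RSINE1): aggtgctgAGGTCAgtggaaaa
Slc16a1 (RSINE1): tcctgtggAGGTCAgaggaaaa
These members lay 1417 bp (Daglb), 3647 bp (Plek) and 5464 bp (Slc16a1) downstream of a TSS. Plek, the platelet gene above, was among them.

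B1 held the same 6 letters at another place. At base 63 of the B1 copy, inside the most common word of the family, 73 of 195 peaks that aligned without a gap read AGGCCA (37.4%) and 17 read AGGTCA (8.72%, 5.51 to 13.5%), while the copy itself reads AGGCTG.
B1_Mus1 reference copy: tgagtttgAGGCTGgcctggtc
Ccdc92b (PB1D9): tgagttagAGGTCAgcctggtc
Shisa5 (B1_Mur2): tgactttgAGGTCAatttggtc
Ezh2 (B1_Mus2): tgtgttcaAGGTCAgcctggtc
Ezh2, whose peak lay 6508 bp downstream of its TSS, encodes the methyltransferase of Polycomb. Ccdc92b (2541 bp downstream) and Shisa5 (4626 bp upstream) were the other 2.

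B1 also held an E-box at a set place. At base 43, 23 of 190 peaks read CAGGTG (12.1%, 8.20 to 17.5%), 18 read CAGGAG, 18 CAGGCA and 13 CAGGCG, among 73 different words. The reference copy has CAGGCG, and CAGGTG differs from it by C5T, counted from the first base of the string, with the reference base first. CAGGTG was thus the most frequent reading at this place, with CAGGAG and CAGGCA close behind, and most peaks read otherwise.
B1_Mus1 reference copy: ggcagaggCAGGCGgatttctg
Pabpc4 (B1_Mur4): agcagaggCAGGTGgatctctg
Zbtb1 (PB1D10): ggcagagaCAGGTGtatttctg
Ndor1 (B1_Mur4): gccacaggCAGGTGgagctctt
These members lay 2522 bp (Pabpc4), 2804 bp (Zbtb1) and 2839 bp (Ndor1) downstream of a TSS. Over the whole peak CAGGTG was in 34.2% of B1 peaks (29.8 to 38.9%) and 35.9% of B4 peaks (32.5 to 39.5%), beside 33.1% without a repeat name, and both intervals included that share. In the B1_Mus and B1_Mm class it was in 47.1%, with a wide interval of 34.1 to 60.5%.

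Among the 53 B4A peaks, of 249, that aligned to the B4A copy, an ETS string recurred at 1 place of the copy. The peak centre lay inside the aligned part in 13 of the 53, so the string need not lie in the repeat named at the centre. The reverse complement of AGGAAG began at base 60 of the copy in 18 of 42 peaks that aligned there without a gap (42.9%, 29.1 to 57.8%), and no other word was found there in more than 2. The copy itself holds the string there, and peaks were kept for likeness to the copy, so this share is in part fixed in advance. The place was picked after the counts were seen. It is printed as it reads in the copy, CTTCCT.
B4A reference copy: ctgggtgtCTTCCTcaattact
Papd5 (B4A): caccacgtCTTCCTttttgctc
Padi1 (B4A): ttggctgtCTTCCTcagtcact
Atp1b3 (B4A): ctgggtgtCTTCCTctgttact
These members lay 8420 bp downstream (Papd5), 9573 bp upstream (Padi1) and 9734 bp downstream (Atp1b3) of a TSS. Over the whole peak, ETS strings were less frequent in members than in peaks without a repeat name and more frequent than on B2, with AGGAAG in 58.7% of B4 peaks (55.1 to 62.3%) and 60.4% of B1 peaks (55.6 to 65%), beside 66.3% without a repeat name and 41.0% on B2 (38.8 to 43.3%). Of all B4A peaks, 59.2% held AGGAAG (53.0 to 65.1%). The PU.1 string was in 7.89% of B4 and 5.83% of B1 peaks, beside 9.74% without a repeat name.

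**Figure D4:**
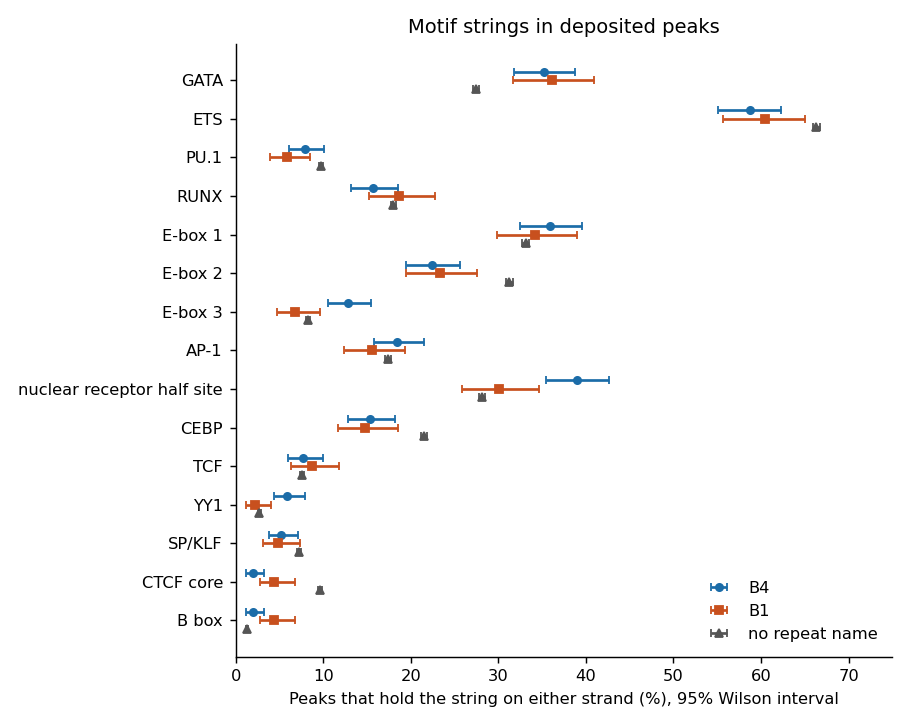
Share of peaks in percent (horizontal axis, with 95% Wilson intervals) that held each of 15 motif strings, for B4 (blue circles), B1 (orange squares) and intron and intergenic peaks without a repeat name (grey triangles). The E-boxes are numbered in the order in which the text lists them. GATA lies at 35.2% and 36.2% in members beside 27.5%, and the CTCF core at 1.97% and 4.37% beside 9.64%.

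The CTCF core was rare in members, in 14 B4 peaks (1.97%, 1.18 to 3.28%) and 18 B1 peaks (4.37%, 2.78 to 6.80%), beside 9.64% without a repeat name and 9.04% on B2, the SINE family known to have spread CTCF sites. On MIR it was as rare as on B4 (2.16%, 1.18 to 3.93%), so a low share was not particular to members. The share on other repeats (4.77%, 4.35 to 5.22%) was close to that of B1 and above that of B4. The E-box CACGTG was in 12.8% of B4 peaks (10.6 to 15.5%) and 6.80% of B1 peaks (4.74 to 9.65%), beside 8.22% without a repeat name and 10.6% on MIR (8.10 to 13.7%), and RSINE1 was highest within B4, with 17.7% (12.9 to 23.9%). The YY1 string was in 5.92% of B4 (4.41 to 7.90%) and 2.18% of B1 (1.15 to 4.1%), beside 2.73% without a repeat name and 6.46% on B2 (5.41 to 7.69%), which was as high as B4. RSINE1 was again highest within B4, at 11.8% (7.94 to 17.3%). An AP-1 string began at base 110 of the RSINE1 copy in 8 of 37 peaks aligned there (21.6%, 11.4 to 37.2%), where the copy reads TGAGCCA. Less frequent in both families were CAGCTG and the C/EBP string, at 22.4% and 23.3% beside 31.2% without a repeat name and 19.1% on B2, and at 15.4% and 14.8% beside 21.5% and 15.3%. For RUNX, AP-1 and TCF the B4 and B1 intervals included the share without a repeat name. The B box of RNA polymerase III was in 4.37% of B1 peaks (2.78 to 6.80%) and 1.97% of B4 peaks (1.18 to 3.28%), beside 1.32% without a repeat name and 4.66% on B2 (3.78 to 5.74%), close to B1. In B1 it was most frequent in B1_Mus and B1_Mm (6 of 51, 11.8%, 5.51 to 23.4%), and in 16 of 185 aligned peaks (8.65%) it began at base 58 of the copy, which itself reads GTTTGAGGC there. Of the 17 aligned B1 peaks with a B box, all 17 had it inside the repeat.

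Reads that matched several places were left out by the authors, so a copy nearly alike to others is harder to see with short reads. The list was made from reads that could be placed, so high uniqueness is in part fixed in advance, in members and comparison groups alike. Reads were 100 bases long, and in 98.2% of B4 peaks (96.9 to 98.9%) and 96.4% of B1 peaks (94.1 to 97.8%) every 100-base window was unique among the assembled chromosomes, beside 98.6% without a repeat name and 95% on B2. With 50-base windows the shares were 82.5% (79.6 to 85.2%) and 76.7% (72.4 to 80.5%), beside 90.3% and 71.4%. By class, 49.0% of B1_Mus and B1_Mm peaks had only unique 50-base windows, and 88.6% of ID_B1 peaks. A single member, a B1_Mus2 peak on X at chrX:170019114-170019612, 40446 bp upstream of G530011O06Rik, had no unique window of either length. This covers the whole 499 bp and not only the repeat, so it is not a trait of the repeat alone. Windows were counted over all assembled chromosomes, X and Y included, and where the other copies lie was not examined. All other members had a unique 100-base window at their centre. How far reads that could not be placed changed the number of young copies in the list was not tested.

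**Figure D5:**
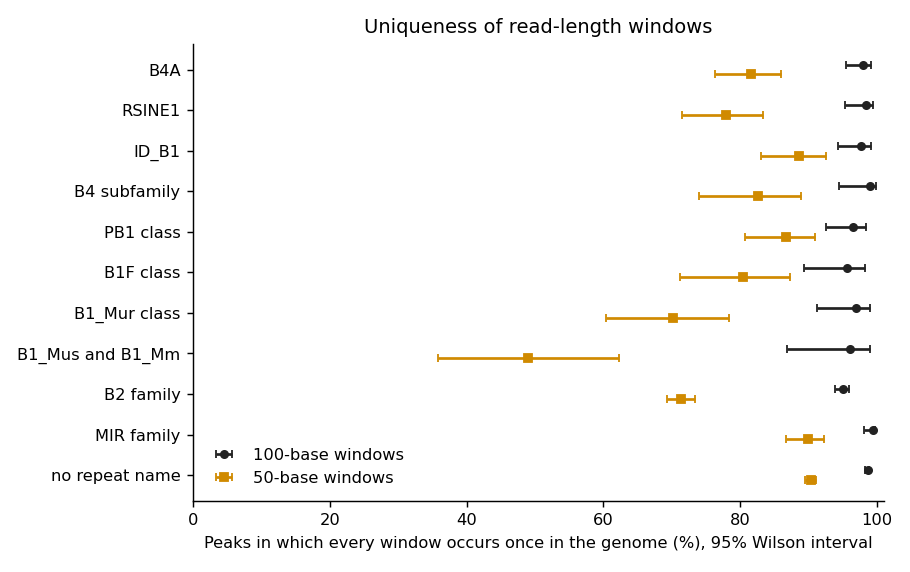
Share of peaks in percent (horizontal axis, with 95% Wilson intervals) in which every window of 100 bases (black circles) or 50 bases (orange squares) occurs in a single place of the genome, by B4 subfamily, B1 class and comparison group. The 100-base shares lie at 95% or higher, while at 50 bases the B1_Mus and B1_Mm class falls to 49.0%.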

How the data were processed

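ATAC-seq was performed in 12 samples, 2 replicates of 6 cell types. Paired reads of 100 bases were processed by the authors with the ATAC-seq pipeline of ENCODE against mm10, without multimapping reads. They concatenated the optimal list of each cell type, kept non-overlapping peaks with chromVAR and annotated them with HOMER (version 4.10.2 in the submitters' processing notes). The deposited positions and distances to the TSS are in bp and were used as given. The deposited score is 0 in each peak and was not used. The list has 0 columns of per-sample values.

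Sequence and curated transcripts were taken from RefSeq for GRCm38, the assembly named mm10. Words have 10 bases and at least 6 different dinucleotides. A word that shares 6 bases in a row, on either strand, with a more common word of its set was left out. Local alignments scored 1 for a match, -1 for a mismatch, -3 to open and -1 to extend a gap, and passed with a score of at least 22 and an identity of at least 70%. Soft masking did not mark repeat borders, so the planned alignment of masked runs was replaced by whole peaks. The planned PB1D10 copy aligned to few B1 peaks, so a family-wide copy was added, with copies of RSINE1, ID_B1 and B4, after seeing the data. Uniqueness of peaks without a repeat name was computed on every 10th such peak, and their alignment on every 50th.

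Members and gene lists were chosen with earlier results of these data known. Genes were named if they had 1 of the 5 members nearest a TSS, were among the 5 with the most members, or were listed; some that met this rule are not reported here. Genes beside the sequences of a shared site were chosen afterwards, as the 3 members nearest a TSS. A motif planted in simulated single copies, without gaps and closer to the copy than most members were, was placed back in nearly all cases. Copies with gaps and peaks with several copies were not simulated. Alternatives concerned subfamilies, distances, gene sets, windows, motif matches and identity. Computations used Python 3.11.15, pandas 2.3.3, numpy 2.4.6, scipy 1.17.1, Biopython 1.88 and numba 0.67.0.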

Additional observations from a re-analysis of the deposited data

How the results depend on the processing

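Without RSINE1 and ID_B1 there were 348 B4 peaks, and without PB1 subfamilies 240 B1 peaks. A minimum of 50% soft-masked bases left 62 and 75, of which 38.7% and 32.0% lay within 10 kb of a TSS. Within 5 kb of a TSS the shares were 10.7% and 15.3%, and within 2 kb of another peak 28.2% and 33.7%. The central 200 bp of B4 peaks had a median GC of 49.0%, and held AGATAA in 19.9% of B4 and 21.6% of B1 peaks and AGGTCA in 21.7% and 17.5%. With 1 mismatch AGATAA was in 100% of both and AGGTCA in 99.3% and 99.5%, so that setting separated nothing. In the central 200 bp, the side of each share relative to peaks without a repeat name was kept for 13 of 15 strings in B4, except TCF and the B box, and for 15 of 15 in B1; with 1 mismatch it was kept for 10 and 11. For the strings other than AGATAA and AGGTCA, 51 of 52 shares under these settings left the interval of the value reported. All 50-base windows were unique in 82.5% and 76.7%. The PB1D10 copy aligned to 4.87% of B1 peaks, against 63.7% for the family copy. The share that aligned moved with the identity required: at 65% and 75% it was 70.8% and 46.0% for B1, 65.4% and 20.5% for RSINE1 and 37.1% and 19.4% for ID_B1. The median place of the centre stayed within its quartiles at both identities. The other alternatives, autosomes and curated RefSeq TSSs and transcripts, stayed within the interval or quartiles of the value reported. At 75% identity too few B4A centres were aligned for a value. No paired analysis was possible because the list is pooled over samples and no result comes from a test. For the same reason no replicate could be left out.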
